A study of Mus musculus with 20 samples.

Results

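Eps8l1, Neb, Ccnd1, Tmem203, Tmem74, Ints7, Lamb3 and Nup210 are 8 of the 25239 genes counted in the preoptic area (POA) of male mice. They were chosen by their measured counts, as genes outside chromosome 5 that differed between dnFGFR and control mice. The genotype difference of these genes is therefore given as a description without a test, and what was tested is whether they also differed between housings. The study asked how prolonged cohabitation with a female changes POA gene expression in males whose gonadotropin-releasing hormone (GnRH) system is impaired. POA RNA of 20 mice was sequenced in bulk, from 5 mice in each of 4 groups. Control SS and dnFGFR SS males were paired with a male at postnatal day (PND) 20, control OS and dnFGFR OS males were paired with a female at the same age, and tissue was collected from all at PND320. OS males bred freely with their partner, so mating and pups belong to the OS condition.

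The dnFGFR transgene encodes a truncated FGF receptor 1 without its kinase domain and is driven by a rat GnRH promoter, so it is targeted to GnRH neurons, a scattered minority of POA cells. The dnFGFR mice came from breeding pairs homozygous for the transgene, and the control mice were bred from matings of heterozygous siblings. No sacrifice date was shared by mice of both genotypes. Transgene, breeding line and sacrifice date therefore cannot be told apart in any genotype difference below. In bulk tissue, fewer cells of a type and less RNA per cell cannot be told apart either.

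The 8 genes do not form a pathway. Eps8l1 encodes a relative of the receptor tyrosine kinase substrate EPS8, whose family links growth factor receptors to the actin cytoskeleton, and Neb encodes nebulin, the giant protein that lines the actin filaments of skeletal muscle. Ccnd1 encodes cyclin D1, which binds CDK4 or CDK6 to drive cells from G1 into S phase and is induced by growth factors in many tissues. Tmem203 and Tmem74 encode small membrane proteins of the endoplasmic reticulum and of lysosomes, linked to calcium handling and to autophagy. Ints7 encodes a subunit of Integrator, the complex that cuts nascent small nuclear RNAs, and Nup210 encodes a membrane protein of the nuclear pore. Lamb3 encodes a laminin beta chain of epithelial basement membranes.

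The genes lie on 5 chromosomes of the GRCm38 assembly. Eps8l1 spans chr7:4460638-4480487 on the plus strand, and Ccnd1 spans chr7:144929931-144939831 on the minus strand, 140 Mb away. Neb spans chr2:52136640-52338798 on the minus strand and Tmem203, a gene of 1 exon, spans chr2:25255439-25256352 on the plus strand. Ints7 spans chr1:191575540-191623690 and Lamb3 chr1:193294353-193343878, both on the plus strand and 1.67 Mb apart. Tmem74 spans chr15:43863345-43870059 and Nup210 spans chr6:91013067-91118322, both on the minus strand.

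7 of the 8 genes overlap another annotated gene, and Tmem74 overlaps none. Eps8l1 shares 10643 bases with Rdh13 and 3640 bases with D630041G03Rik, and Neb shares 24239 bases with 4930573O16Rik. The overlaps of the other genes were 818 bases between Ccnd1 and LTO1, 71 between Tmem203 and Ndor1, 5 between Ints7 and Dtl, 2536 between Lamb3 and Gm51741, and 1102 between Nup210 and Gm30364. Whether counting used the strand of the reads is not given in the sources used here, so reads in these stretches could belong to either gene.

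RefSeq promoter windows, from 250 bases before to 50 bases after an annotated start in GRCm38.p6, were at hand for 5 of the genes (8 windows): Eps8l1, Tmem203, Ints7, Lamb3 and Nup210. The Eps8l1 window is shown because this gene differed most between genotypes, and the Ints7 window because it was the only one of the 8 that held a searched motif. The Eps8l1 window lies at chr7:4460447-4460746 and the Ints7 window at chr1:191575386-191575685, both on the plus strand, and capitals mark the cAMP response element.
Eps8l1: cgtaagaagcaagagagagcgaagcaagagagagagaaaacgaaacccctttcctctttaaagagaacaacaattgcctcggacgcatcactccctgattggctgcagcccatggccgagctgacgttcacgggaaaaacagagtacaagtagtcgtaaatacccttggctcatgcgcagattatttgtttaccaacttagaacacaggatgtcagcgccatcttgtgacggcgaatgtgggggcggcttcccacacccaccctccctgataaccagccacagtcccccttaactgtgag
Ints7: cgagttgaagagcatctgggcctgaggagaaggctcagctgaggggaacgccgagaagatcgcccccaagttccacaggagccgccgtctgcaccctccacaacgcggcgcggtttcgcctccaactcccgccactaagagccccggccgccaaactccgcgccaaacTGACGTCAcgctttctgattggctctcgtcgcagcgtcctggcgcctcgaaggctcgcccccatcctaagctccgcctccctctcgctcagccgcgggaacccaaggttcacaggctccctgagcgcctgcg
The motif TGACGTCA began 82 bases before the annotated Ints7 start, and 1.79% of 32851 promoter windows held it on either strand. None of the 8 windows held the AP-1 motif TGANTCA, the ETS motif CCGGAAG or the E-box CACGTG, which were in 7.81%, 8.86% and 7.15% of all windows. These letters were searched on both strands, and a match or its absence is a description only.

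The libraries held 32353578 to 39871353 counted reads per mouse and levels are given in CPM, which are counts scaled to library size with TMM factors. The lowest counts behind a value of the 8 genes were 41 reads for Neb and 44 reads for Eps8l1. Genes with at least 1 read numbered 19101 to 19659 in 19 mice and 18416 in dnFGFR OS replicate 5. Gnrh1, which encodes GnRH, was lower in dnFGFR mice at 1.34 ± 0.308 CPM (SD, n = 10) than in control mice at 2.01 ± 0.391 CPM (log2 fold change -0.58 ± 0.152 SE, adjusted p = 0.0777, edgeR quasi-likelihood test with Benjamini-Hochberg adjustment over 17445 genes). Fgfr1 did not pass the test (log2 fold change -0.02, adjusted p = 0.938). All 6 markers of POA and hypothalamic neurons had reads, and striatal markers summed to 1548 to 3093 CPM per mouse. All 8 genes passed the filter on low counts in every comparison.

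Per kilobase of exon, Tmem203 had the highest level in control mice at 19.4 ± 3.38 CPM per kb (SD, n = 10), followed by Ccnd1 at 8.68 ± 0.928. Ints7 at 4.66 and Nup210 at 3.82 CPM per kb came next with overlapping ranges, then Lamb3 and Tmem74 at 1.20 CPM per kb each. Eps8l1 at 0.286 and Neb at 0.189 CPM per kb were lowest in control mice, and their ranges overlapped too. In dnFGFR mice Eps8l1 stood at 2.65 ± 1.33 CPM per kb, within the range of Nup210 and Tmem74, whereas Lamb3 at 0.590 and Neb at 0.0660 CPM per kb had the lowest means. Lamb3 ranged from 0.422 to 0.857 CPM per kb, inside the Eps8l1 range of 0.314 to 4.50, and Neb, whose highest value was 0.107 CPM per kb, overlapped with no other gene of the 8.

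Eps8l1 was higher in dnFGFR than in control mice by the widest margin of the 8 genes. The 5 control SS mice had 2.62, 1.21, 1.25, 1.84 and 2.24 CPM and the 5 control OS mice 1.96, 1.43, 1.42, 1.71 and 1.59 CPM, in the order of replicates 1 to 5. The dnFGFR SS mice had 12.8, 1.90, 27.2, 10.95 and 12.9 CPM, and the dnFGFR OS mice had 25.8, 8.50, 20.8, 16.8 and 22.0 CPM. All control mice were low, 9 of 10 dnFGFR mice were above every control mouse, and dnFGFR SS replicate 2 lay inside the control range. Between the 11 low mice and the 9 high ones there was an empty stretch from 2.62 to 8.50 CPM, 1.68 wide on the log2 scale, while no other gap between neighbouring mice was wider than 0.386. On the log2 scale the genotype difference was 2.84 ± 0.482 (SE) in SS mice, 3.54 ± 0.266 in OS mice and 3.19 ± 0.311 over both housings, a fold of 9.11. Without dnFGFR SS replicate 2 the value over both housings was 3.33, and without dnFGFR SS replicate 3 it was 2.97.

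Neb was lower in dnFGFR mice, and it was the only one of the 8 genes in which the 10 control and the 10 dnFGFR mice did not overlap. Control SS mice had 3.22, 6.68, 6.33, 4.02 and 5.22 CPM, and control OS mice had 5.41, 4.16, 5.56, 4.84 and 4.72 CPM. Among dnFGFR mice, Neb was at 1.74, 1.46, 1.16, 1.70 and 1.40 CPM in SS housing and at 1.49, 2.56, 1.54, 1.65 and 2.84 CPM in OS housing. The highest dnFGFR mouse, OS replicate 5, came near the lowest control mouse, SS replicate 1. The log2 difference was -1.77 ± 0.209 in SS mice and -1.29 ± 0.207 in OS mice, and -1.53 ± 0.150 over both housings. Of all 17445 genes, 14 (0.0803%) had no overlap between 10 and 10 mice. The summed level of skeletal muscle markers ranged from 6.68 to 9.37 CPM over control mice and from 7.19 to 12.6 CPM over dnFGFR mice. Most of it was Acta1, with a mean of 6.09 CPM in control and 6.71 CPM in dnFGFR mice. For genotype 0 of the 5 tested markers passed, against 1.3% of all genes, and the part of muscle in the Neb difference was not tested.

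Ccnd1 was lower in dnFGFR mice. Levels were 45.02, 38.1, 40.3, 39.4 and 47.0 CPM in control SS mice and 37.8, 43.6, 43.7, 31.8 and 41.8 CPM in control OS mice. The counterparts were 29.4, 27.2, 25.9, 30.4 and 28.4 CPM in dnFGFR SS mice and 27.0, 29.4, 28.9, 30.1 and 32.7 CPM in dnFGFR OS mice. Only control OS replicate 4 and dnFGFR OS replicate 5 reached into the range of the other genotype. The log2 difference was -0.57 ± 0.0670 in SS mice and -0.42 ± 0.0964 in OS mice.

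Tmem203 was lower in dnFGFR mice in both housings. Control SS mice had 17.7, 18.1, 20.2, 10.9 and 20.03 CPM, and control OS mice had 16.7, 16.5, 15.1, 13.2 and 17.4 CPM. Tmem203 was at 8.43, 8.35, 11.2, 9.25 and 8.72 CPM in dnFGFR SS mice and at 9.64, 9.02, 8.15, 9.32 and 10.7 CPM in dnFGFR OS mice. Control SS replicate 4 stood among the dnFGFR mice, and without it the log2 difference in SS mice was -1.05 in place of -0.92 ± 0.147. Without control SS replicate 3 the same difference was -0.86. In OS mice, where the genotypes did not overlap, the log2 difference was -0.75 ± 0.107.

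Tmem74 was higher in dnFGFR mice, with the most overlap between genotypes. Levels were 4.57, 4.42, 3.94, 3.75 and 4.46 CPM in control SS mice and 5.47, 2.80, 4.66, 4.66 and 3.52 CPM in control OS mice. Among dnFGFR mice, Tmem74 was at 8.78, 7.02, 5.63, 8.66 and 6.30 CPM in SS housing and at 7.07, 4.06, 6.43, 7.45 and 9.68 CPM in OS housing. Among SS mice all dnFGFR values were above all control values, but dnFGFR OS replicate 2 was as low as the control mice, so that 6 control mice lay inside the dnFGFR range. The log2 difference was 0.78 ± 0.133 in SS mice and 0.72 ± 0.232 in OS mice.

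Ints7 was higher in dnFGFR mice. Control SS mice had 32.7, 34.0, 39.9, 29.6 and 31.8 CPM, and control OS mice had 29.1, 32.9, 33.1, 31.3 and 46.9 CPM. The counterparts were 48.1, 47.8, 42.6, 51.1 and 47.7 CPM in dnFGFR SS mice and 44.2, 47.4, 46.5, 49.0 and 55.8 CPM in dnFGFR OS mice. Apart from control OS replicate 5, which was at the dnFGFR level, every control mouse was below every dnFGFR mouse. The log2 difference was 0.50 ± 0.0746 in SS mice and 0.49 ± 0.121 in OS mice. The OS value was 0.62 without control OS replicate 5 and 0.43 without dnFGFR OS replicate 5.

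Lamb3, the neighbour of Ints7 on chromosome 1, differed in the opposite direction. Levels were 9.93, 8.19, 7.9996, 5.32 and 7.98 CPM in control SS mice and 8.40, 8.93, 8.46, 9.35 and 4.66 CPM in control OS mice. Lamb3 was at 4.46, 4.63, 4.67, 3.78 and 2.90 CPM in dnFGFR SS mice and at 4.26, 5.67, 2.79, 2.91 and 2.90 CPM in dnFGFR OS mice. Control OS replicate 5 was again at the dnFGFR level, and control SS replicate 4 was below dnFGFR OS replicate 2. The log2 difference was -0.94 ± 0.165 in SS mice and -1.10 ± 0.234 in OS mice. Summed epithelial markers ranged from 0.994 to 6.98 CPM over control mice and from 1.36 to 7.83 CPM over dnFGFR mice. Krt18 and Krt8 had the highest means of the 6, at 1.70 and 1.27 CPM in control and 0.941 and 0.920 CPM in dnFGFR mice. Krt5 and Krt14 had means of 0.00526 and 0.114 CPM in control mice. The median sum in control mice was 2.20 CPM in SS and 6.22 CPM in OS housing, against 1.84 and 1.78 CPM in dnFGFR mice. The part of epithelium in the Lamb3 difference was not tested.

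Nup210 had the smallest genotype difference of the 8 genes. Control SS mice had 39.5, 37.1, 44.5, 43.5 and 44.4 CPM, and control OS mice had 38.1, 35.9, 40.8, 37.5 and 38.9 CPM. Among dnFGFR mice, Nup210 was at 28.6, 35.0, 31.8, 31.7 and 31.9 CPM in SS housing and at 31.7, 26.9, 33.5, 35.7 and 36.6 CPM in OS housing. Groups did not overlap in SS mice, while dnFGFR OS replicate 5 was above control OS replicate 2. The log2 difference was -0.39 ± 0.0680 in SS mice and -0.22 ± 0.0908 in OS mice.

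**Figure D1:**
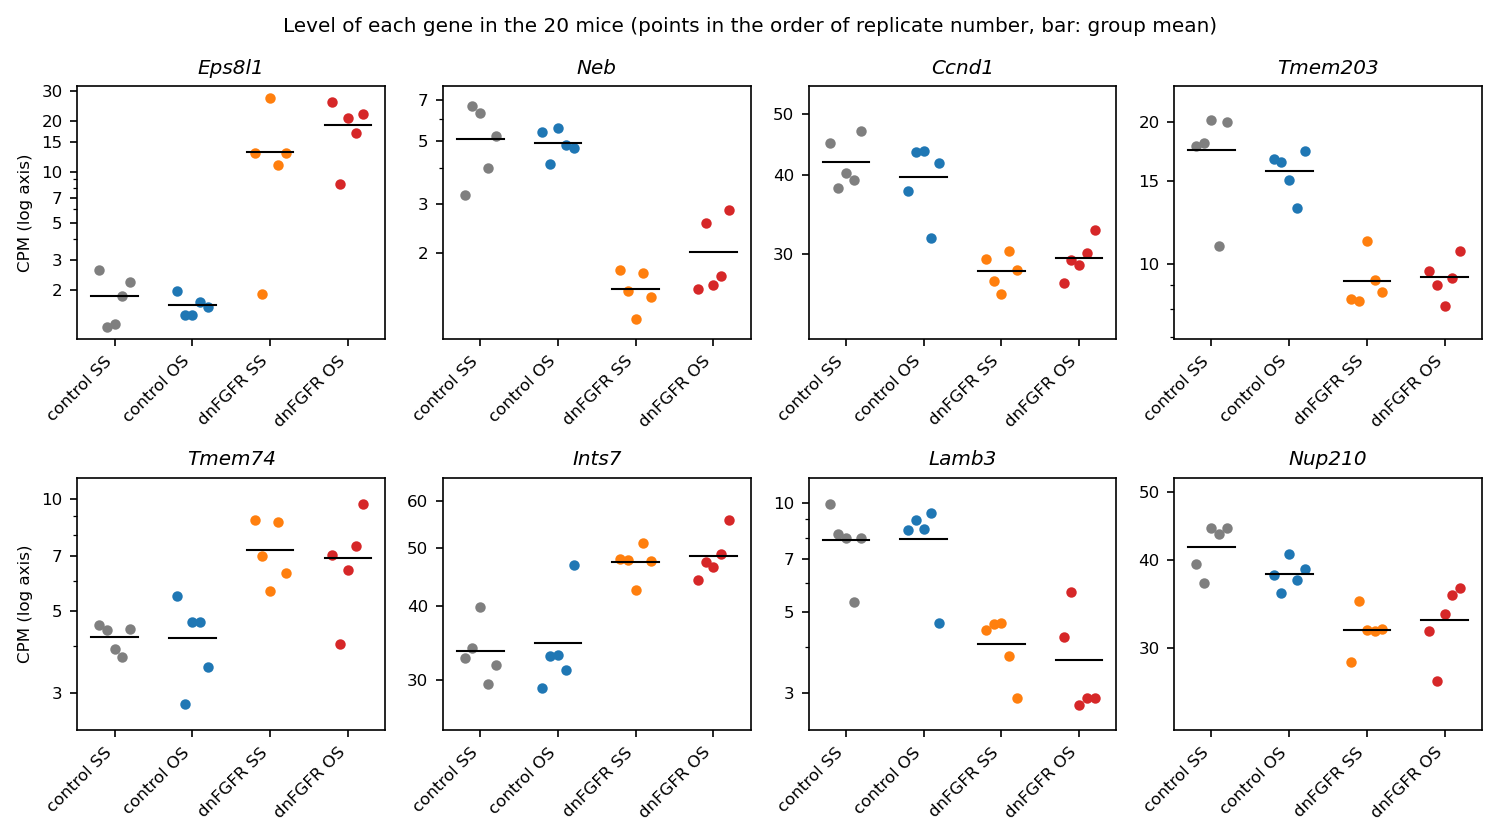
Level of each of the 8 genes in CPM (log axis) in the 20 mice, 1 point per mouse in the order of replicate number and a bar at the group mean. Neb is the panel without overlap between control and dnFGFR mice, dnFGFR SS replicate 2 lies among the controls in the Eps8l1 panel at 1.90 CPM, and control OS replicate 5 lies among the dnFGFR mice in the Ints7 and Lamb3 panels.

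Over all genes, 34 of 16992 were called for genotype in SS mice at an adjusted p under 0.1 (0.2%), 9 of 16941 in OS mice (0.0531%) and 226 of 17445 over both housings (1.3%). Since the 8 genes were chosen by this contrast, its calls are not counted for them, and the overlap of their groups is a description too. Outside chromosome 5, 190 genes that are not among the 8 were called over both housings, 17 in SS mice and 4 in OS mice. The genotypes did not overlap in SS mice for Neb, Ccnd1, Tmem74, Ints7, Lamb3 and Nup210, against 1.54% of all genes, and in OS mice for Eps8l1, Neb and Tmem203, against 1.52%.

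The sign of the genotype difference was the same in SS and OS mice for each of the 8 genes. Whether its size differed between housings was tested by the interaction, in which 0 of 17445 genes were called (0%), with 595 at an unadjusted p under 0.05 and 0 by DESeq2. The log2 interaction (the genotype difference in OS mice minus that in SS mice) was 0.69 ± 0.604 for Eps8l1, 0.48 ± 0.296 for Neb, 0.18 ± 0.111 for Nup210 and between -0.15 and 0.17 for the other five, with adjusted p from 0.963 to 0.995 (edgeR quasi-likelihood test). The Eps8l1 value was 0.42 without dnFGFR SS replicate 2 and 1.16 without dnFGFR SS replicate 3. Ranked by p for genotype, the 8 genes stood at 1 to 18 of 16992 in SS mice and at 2 to 808 of 16941 in OS mice. How far their choice leaned on SS mice is not known, and such a choice would bear on the interaction values.

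Housing was not used to choose the genes, and none of the 8 passed the test for OS against SS housing. A choice of genes that leaned on SS mice would still bear on the housing values within either genotype, which use the same SS mice. The value over both genotypes does not share the genotype contrast in this balanced design. In control mice 21 of 17004 genes were called (0.124%) and 0 of the 8. In dnFGFR mice 0 of 16944 genes were called (0%), with 1138 at an unadjusted p under 0.05 and 5 by DESeq2. Over both genotypes 8 of 17445 genes were called (0.0459%) and 0 of the 8.

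Eps8l1, the actin regulator of the EPS8 family, had a log2 housing difference of -0.17 ± 0.236 in control mice and 0.52 ± 0.466 in dnFGFR mice (adjusted p = 0.927 and 0.837, edgeR quasi-likelihood test with Benjamini-Hochberg adjustment). Without dnFGFR SS replicate 2 the latter was 0.24, and without dnFGFR SS replicate 3 it was 0.97. The dnFGFR SS mice spanned 14.3-fold in Eps8l1, from 1.90 to 27.2 CPM, which is wider than the difference between housings. For Neb the log2 housing difference was -0.05 ± 0.182 in control mice and 0.44 ± 0.239 in dnFGFR mice (adjusted p = 0.978 and 0.762), and the 5 SS and 5 OS mice of either genotype overlapped. Ccnd1 differed by -0.08 ± 0.0869 in control and 0.07 ± 0.0779 in dnFGFR mice, and Tmem203 by -0.14 ± 0.137 and 0.03 ± 0.114.

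Tmem74 differed by -0.0033 ± 0.167 between housings in control mice and by -0.07 ± 0.204 in dnFGFR mice, and Ints7 by 0.05 ± 0.115 and 0.03 ± 0.0788. For Lamb3 the log2 housing difference was 0.02 ± 0.181 in control mice and -0.14 ± 0.222 in dnFGFR mice, and for Nup210 it was -0.13 ± 0.0644 and 0.05 ± 0.0929. Nup210 in control mice had the lowest unadjusted p of the 8 genes in any housing comparison, 0.0640, with an adjusted p of 0.708 (edgeR quasi-likelihood test). Over both genotypes the adjusted p ran from 0.665 for Neb to 0.988 for Ccnd1.

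**Figure D2:**
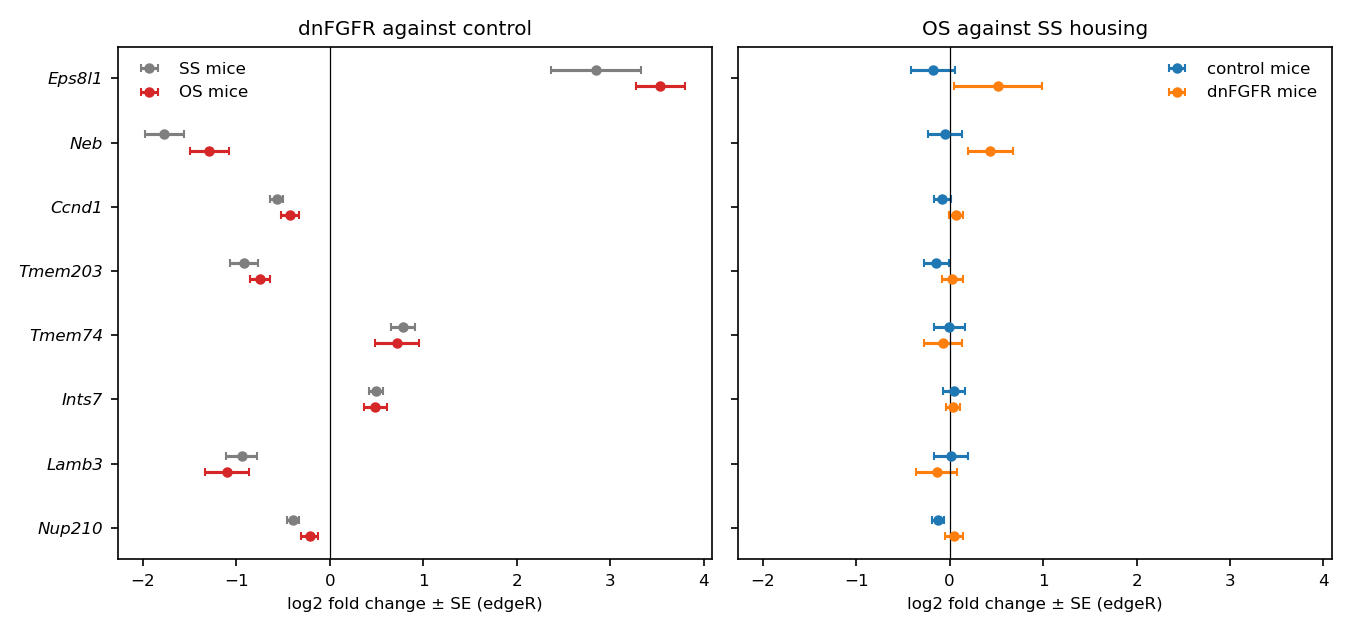
Log2 fold change ± SE of the 8 genes, for dnFGFR against control (left, SS and OS mice apart) and for OS against SS housing (right, control and dnFGFR mice apart). Genotype differences have the same sign in both housings, from 3.54 for Eps8l1 in OS mice to -1.77 for Neb in SS mice, while the housing differences lie between -0.17 and 0.52 and none passed the test.

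The mice that lay inside the range of the other genotype were not the same from gene to gene. Of the 20 mice, 15 did so for at least 1 gene, and dnFGFR SS replicate 3 for 3 of them, Tmem203, Ints7 and Lamb3. This count works both ways, since 1 mouse far from its own genotype widens that range and brings in mice of the other genotype. For dnFGFR SS replicate 3 the overlap rested on control SS replicate 4 in Tmem203 and on control OS replicate 5 in Ints7 and Lamb3. The split of dnFGFR SS replicate 2 was seen in Eps8l1 alone among the 8 genes, and this mouse stood with the other dnFGFR mice for the remaining genes. It was then looked at in the called genes within 2 Mb of Eps8l1, a choice made after the values were seen.

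Oscar, which encodes an immune receptor of osteoclasts, had 0.163 CPM (6 reads) in dnFGFR SS replicate 2, against 1.01 to 4.73 in the other 9 dnFGFR mice and 0.0284 to 0.373 in control mice. Tmc4, which encodes a transmembrane channel-like protein, had 4.07 CPM there, against 5.86 to 11.8 and 3.16 to 5.68 CPM. D630041G03Rik, which overlaps Eps8l1, had 1.44 CPM, although 1 other dnFGFR mouse was as low at 1.36 CPM. The same mouse was at the control level in the genes that were lower in dnFGFR mice. Rdh13, a retinol dehydrogenase gene that overlaps Eps8l1, had 44.4 CPM in it, against 22.0 to 36.8 CPM in the other 9 dnFGFR mice and 38.2 to 48.1 CPM in control mice. Sbk3 had 6.45 CPM, against 2.02 to 4.70 and 4.99 to 7.13 CPM. The 6 genes lie on chromosome 7 and the farthest, Oscar, is 844 kb from Eps8l1.

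Control OS replicate 5 stood at the dnFGFR level in genes on chromosome 1. Besides Ints7 at 46.9 CPM and Lamb3 at 4.66 CPM, it had 9.54 CPM of 1700034H15Rik. The other 9 control mice had 10.998 to 13.5 CPM of 1700034H15Rik and the dnFGFR mice 6.87 to 11.04 CPM. Control OS replicate 4, at 10.998 CPM, was thus also within the dnFGFR range. 1700034H15Rik lies 270 kb from Ints7 and was called lower in dnFGFR mice over both housings (log2 fold change -0.40 ± 0.0797, adjusted p = 0.0159, edgeR quasi-likelihood test). Within 1 Mb, 1 of 26 tested neighbours of Ints7 and 0 of 14 of Lamb3 were called for genotype over both housings, against 1.3% of all genes. For the 6 genes of the set that lie elsewhere, control OS replicate 5 was within the range of the other control mice.

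**Figure D3:**
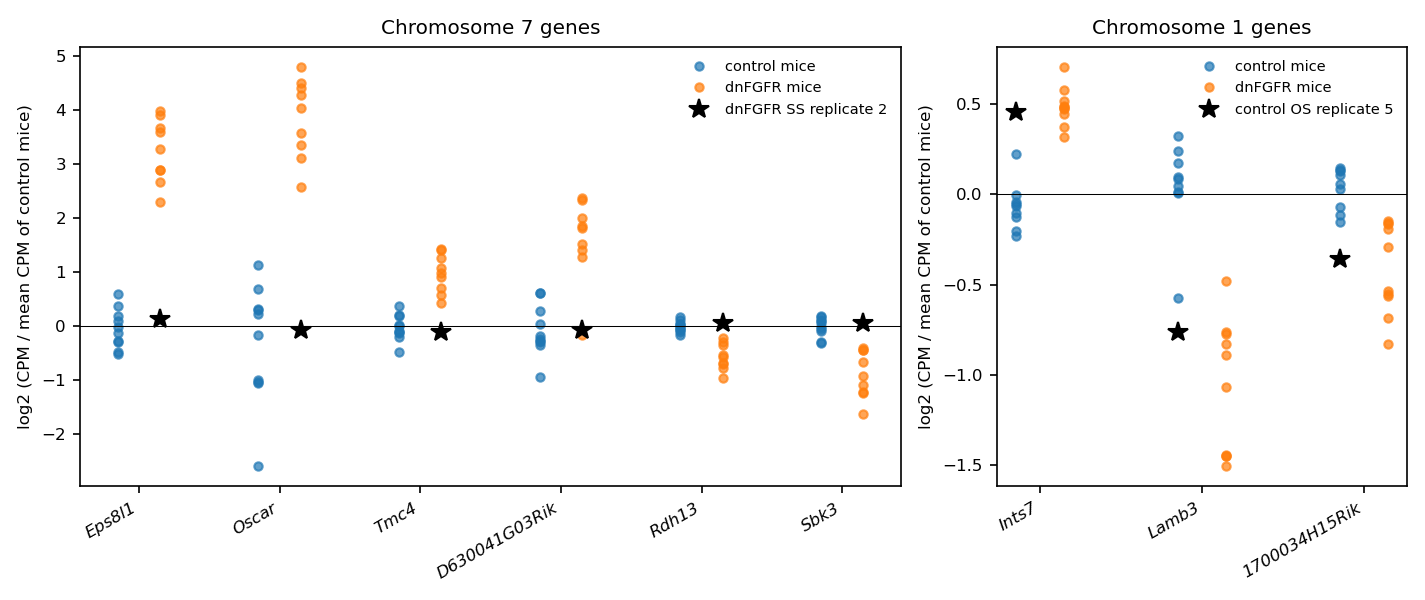
Log2 of each mouse's CPM over the mean of the control mice, for Eps8l1 and 5 nearby genes on chromosome 7 (left) and for Ints7, Lamb3 and 1700034H15Rik on chromosome 1 (right), with control and dnFGFR mice in blue and orange. The star marks dnFGFR SS replicate 2 on the left, within the control range for all 6 genes, and control OS replicate 5 on the right, within the dnFGFR range for all 3, and both mice and the genes beside Eps8l1, Ints7 and Lamb3 were picked after the values were seen.

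Genes beside the 8 on the genome were described in the same fit. Within 2 Mb on either side, 306 other genes were tested and 18 of them were called for genotype over both housings, 14 higher and 4 lower in dnFGFR mice (5.88%, against 1.3% of all genes), and all 18 were within 1 Mb. The median log2 fold change of the 306 was -0.0015 and that of all genes was -0.00040. Genes near Eps8l1 changed in both directions, with Oscar higher by 3.71 ± 0.399, D630041G03Rik by 1.64 ± 0.281 and Tmc4 by 0.93 ± 0.144 on the log2 scale (adjusted p = 2.21e-05, 0.00422 and 0.00131, edgeR quasi-likelihood test). Rdh13 was lower (log2 fold change -0.48 ± 0.0869, adjusted p = 0.00748) and so was Sbk3 (-0.75 ± 0.131, adjusted p = 0.00544). D630041G03Rik and Rdh13 overlap Eps8l1, so reads in the shared stretches could belong to either gene.

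Near Tmem74, Rspo2, which encodes a secreted enhancer of Wnt signalling, rose from 5.17 ± 1.81 CPM in control mice to 22.2 ± 2.13 CPM in dnFGFR mice (SD, n = 10 each). Its log2 fold change was 2.10 ± 0.171 (adjusted p = 5.25e-07, edgeR quasi-likelihood test), and its highest control mouse, at 7.93 CPM, was below its lowest dnFGFR mouse, at 18.3 CPM. Trhr, the receptor of thyrotropin-releasing hormone, was also higher near Tmem74 by 0.59 ± 0.113 on the log2 scale. Near Ccnd1, the growth factor gene Fgf15 and the receptor gene Mrgprf were higher in dnFGFR mice, at log2 fold changes of 1.63 ± 0.420 and 1.11 ± 0.207, whereas Ccnd1 itself was lower. Fgf15 was at no more than 0.672 CPM in any mouse and had no read in 2 control OS mice.

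Near Tmem203, Entpd2, which encodes an ATP-degrading enzyme of the cell surface, and Ptgds, the prostaglandin D synthase gene, rose by 0.67 ± 0.127 and 0.86 ± 0.191 on the log2 scale, and Tmem250-ps fell by 0.23. Nelfb, Uap1l1 and Zmynd19 were the other called neighbours of Tmem203, all higher. Near Neb only Arl5a was called (log2 fold change 0.29 ± 0.0678), and near Nup210 only Fbln2, which encodes an extracellular matrix protein (0.46 ± 0.0903). Both were higher in dnFGFR mice, while Neb and Nup210 were lower.

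**Figure D4:**
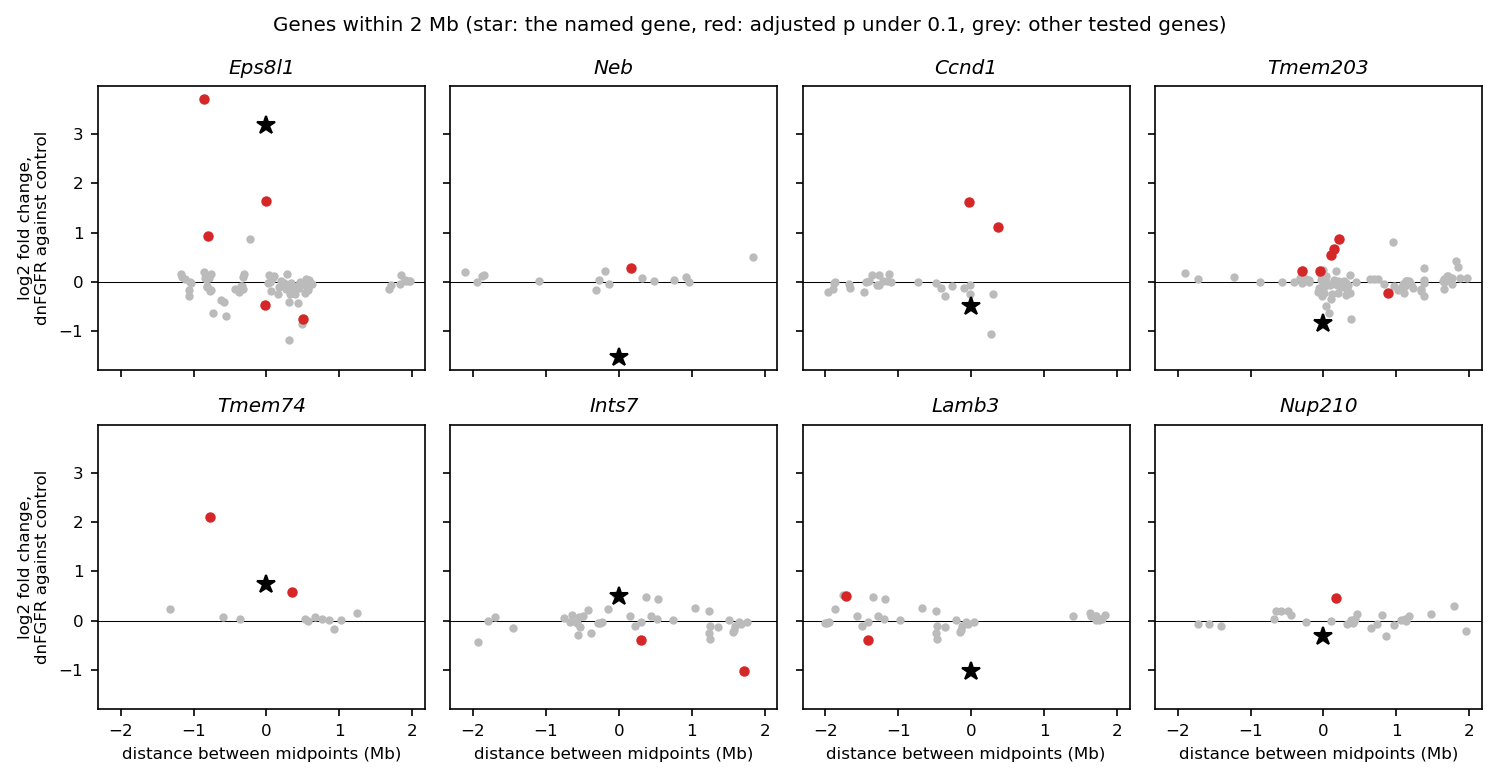
Log2 fold change of dnFGFR against control over both housings for the genes tested within 2 Mb of each of the 8 genes, by distance between gene midpoints in Mb. Called genes (red, the other members included) stood beside genes near 0 (grey), and called neighbours of Neb, Ccnd1 and Nup210 lay above 0 where the gene itself (star) lay below it.

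The relatives and partners of the 8 genes were described from 7 lists. In each list, 0 of the tested genes passed for genotype over both housings, against 1.3% of all genes: 22 genes of the D-type cyclins, their kinases, inhibitors and RB-E2F partners, 17 laminin chains and receptors, 17 Integrator subunits, 30 nucleoporins, 16 nebulin relatives and thin filament genes, 11 EPS8 relatives and partners, and 13 partners of TMEM74 and TMEM203. 8 of these 126 genes had an unadjusted p under 0.05, against 1955 of all 17445 genes (11.2%). DESeq2, which called more genes in this contrast than edgeR, called 2 of the 126. The median log2 fold change of a list ran from -0.08 for laminins to 0.03 for thin filament genes. The lists also held 0 called genes for housing over both genotypes (0.0459% of all genes).

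Among the nearest relatives, Ccnd2 had 68.1 ± 9.86 CPM in control and 64.0 ± 6.99 CPM in dnFGFR mice (SD, n = 10 each; log2 fold change -0.09, adjusted p = 0.727). Ccnd3, the other D cyclin, and the kinase gene Cdk4 had log2 fold changes of -0.08 and -0.0033 (adjusted p = 0.822 and 0.991, edgeR quasi-likelihood test). Cdk6, the gene of the other kinase, was lower like Ccnd1 (log2 fold change -0.29 ± 0.137). Its unadjusted p was 0.0476 and its adjusted p 0.439 in the same test. Lama3, which encodes a laminin alpha chain, was at 7.43 ± 1.10 CPM in control mice and 7.29 ± 1.29 CPM in dnFGFR mice (log2 fold change -0.03, adjusted p = 0.944, edgeR quasi-likelihood test). Eps8, Eps8l2 and Eps8l3 had log2 fold changes of 0.02, -0.15 and -0.05, and Tmem74b one of 0.0068. The nebulin relatives Nebl and Nrap both had 0.03, and the Nup210 relative Nup210l had -0.20 ± 0.253. None of these passed the test.

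Likeness of pattern was described by Pearson's r of log2 CPM over the 20 mice, which holds the genotype difference itself. The genes most like Eps8l1 were Oscar (r = 0.968) and D630041G03Rik (r = 0.915), both its neighbours. D630041G03Rik shares 3640 bases with Eps8l1, so reads counted for it could belong to either gene. Those most like Ints7 were Rspo2 (r = 0.859) on chromosome 15 and Gm4349 (r = 0.828) on chromosome 3. Ccnd1 was most like Gm10654 (r = 0.897) and Ncan (r = 0.891), and Tmem203 most like Gm9732 (r = 0.870) and Ccnd1 (r = 0.867). The genes most like Neb were Zfp277 (r = 0.886) and Prkag2os1 (r = 0.870), and those most like Lamb3 were Rps2 (r = 0.869) and Gm9732 (r = 0.855). Tmem74 was most like Atp13a3 (r = 0.874) and Fam117b (r = 0.865), whose own genotype differences did not pass the test (adjusted p = 0.297 and 0.199, edgeR), and Nup210 most like Gask1b (r = 0.837) and Cux1 (r = 0.820). Gm9732 had no read in any dnFGFR mouse and 0.780 ± 0.484 CPM in control mice (SD, n = 10).

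Markers of other cell types were read in the same fit. Over 10 lists of markers, 3 of 48 tested genes passed for genotype over both housings, Gnrh1 and 2 of the striatum, against 1.3% of all genes. Of 6 striatal markers, Drd2 and Rgs9 were lower in dnFGFR mice (log2 fold change -0.27 each, adjusted p = 0.0324 and 0.0303, edgeR quasi-likelihood test), and the median of the 6 was -0.24. Choroid plexus markers summed to 35.6 to 1954 CPM over control mice and 37.4 to 2177 CPM over dnFGFR mice. For genotype 0 of 6 passed. The median sum was 1422 CPM in control OS against 129 CPM in control SS mice, and 228 against 49.5 CPM in dnFGFR mice. The ranges of SS and OS mice overlapped in both genotypes. The part of striatal or choroid plexus tissue in the genotype or housing differences of the 8 genes was not tested.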

How the data were processed

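POA RNA of 20 male mice was sequenced as paired-end libraries. Reads were aligned by HISAT2 to GRCm38 and assigned to RefSeq genes by Rsubread, and the authors deposited the raw counts of 25239 genes without normalization. Whether reads over several genes or places were counted is not given in the sources used here. The table also held 20 columns of no sample described here, which were not used. Groups came from the sample titles, with 5 mice each, and p-values measure the spread between these mice.

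Counts were tested with edgeR 4.0.16 (TMM, filterByExpr, quasi-likelihood test, Benjamini-Hochberg adjustment over all genes tested, adjusted p under 0.1) in R 4.3.3. Housing and genotype were fitted on the groups compared, and the values over both and the interaction on all 4 groups. DESeq2 1.42.0, RLE factors, other filters, a replicate block and each mouse left out were alternatives. The script was checked on simulated counts. No 2 mice of a group differed by as little as sampling noise.

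The 8 genes and all lists were chosen with earlier results of these data known, and no choice is independent of them. Named genes are the 8, Gnrh1 and Fgfr1, their closest relatives, the 2 most alike in pattern and up to 3 called neighbours per gene by p. Rdh13 and Sbk3 near Eps8l1, Nelfb, Uap1l1 and Zmynd19 near Tmem203, and the kinase gene Cdk6 were added after their values were seen. Coordinates come from the RefSeq gene table of GRCm38.p6, where 25041 gene symbols matched, and exon lengths from the GENCODE annotation of GRCm38. Log2 CPM used a prior count of 2.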

Additional observations from a re-analysis of the deposited data

Results flagged for a closer look

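In 3 of the 32 sets of 5 mice (8 genes in 4 groups), 1 mouse stood far from the other 4 of its group by Dixon's criterion at the 95% level. Chance flags about 1 set in 20, and over all genes 5.75% of 69780 sets were marked. Tmem203 was at 10.9 CPM in control SS replicate 4, while the other 4 mice of that group had 17.7 to 20.2 CPM. Ints7 was at 46.9 CPM in control OS replicate 5, against 29.1 to 33.1 CPM in the rest of its group. Lamb3 was at 4.66 CPM in the same mouse, against 8.40 to 9.35 CPM. Each of these values lay within the range of the dnFGFR mice.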

How the results depend on the processing

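The count of genes called for genotype in SS mice (34) was 223 by DESeq2, and 21 to 70 with single mice left out. For genotype in OS mice (9) it was 78 by DESeq2, 45 with all groups in one fit, 3 with the replicate block, 5 at an adjusted p under 0.05 and 3 to 16 with single mice left out. For genotype over both housings (226) it was 436 by DESeq2 and 157 to 337 with single mice left out. For housing in control mice (21) the count was 157 by DESeq2, 32 with at least 10 counts in every mouse, 1 on the shared dates, 0 with all groups in one fit (752 at an unadjusted p under 0.05), 6 at an adjusted p under 0.05 and 0 to 32 with single mice left out. For housing in dnFGFR mice (0) it was 5 by DESeq2 and 0 in each fit without 1 mouse. For housing over both genotypes (8) it was 327 by DESeq2, 4 without a filter, 3 with the replicate block, 3 at an adjusted p under 0.05 and 0 to 398 with single mice left out, the highest without dnFGFR OS replicate 2, followed by 201 without dnFGFR OS replicate 4. The family lists held 2 called genes by DESeq2 and 0 to 1 with single mice left out, and the neighbours 15 to 20 and 16 with the replicate block. These settings for lists and neighbours were chosen after seeing the data, except the mice left out for the neighbours.

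None of the 8 genes passed for housing over both genotypes, within either genotype or for the interaction in any fit without 1 mouse. On the shared dates in control mice the housing difference turned sign for Eps8l1 (0.40), Ccnd1 (0.0040), Tmem74 (0.0015), Ints7 (-0.069) and Lamb3 (-0.057). With single mice left out it spanned 0 in control mice for Neb (-0.17 to 0.068), Tmem74 (-0.11 to 0.11), Ints7 (-0.090 to 0.11) and Lamb3 (-0.097 to 0.16), and in dnFGFR mice for Tmem203 (-0.023 to 0.11), Tmem74 (-0.22 to 0.078) and Ints7 (-0.020 to 0.071). Over both genotypes it did so for Ccnd1 (-0.021 to 0.036), Tmem74 (-0.11 to 0.041), Ints7 (-0.022 to 0.077) and Lamb3 (-0.16 to 0.014), and the interaction for Tmem74 (-0.21 to 0.090) and Ints7 (-0.077 to 0.14). The interaction kept its sign but moved by over 1.5 times for Eps8l1 (0.42 to 1.16), Ccnd1 (0.089 without control OS replicate 4), Tmem203 (0.30 without control SS replicate 4, 0.26 without dnFGFR SS replicate 3) and Lamb3 (from -0.35 without dnFGFR OS replicate 2 to -0.036 without control SS replicate 4). The cause was not tested. Same-numbered mice of different groups had a mean r of -0.0230 over 30 pairs, with 4 over 0.1. For other pairs the mean r was 0.0058 over 120 pairs, with 26 over 0.1. No pairing by number was seen, although these correlations cannot exclude a shared cage, litter or handling.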
